A study of Drosophila melanogaster with 48 samples.

Results

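Neurons of the Drosophila melanogaster embryo were compared near the end of embryogenesis and at the stage of early differentiation. The neuron libraries were the 4 of the 48 libraries of the series that came from Elav-positive (Elav+) cells of the 18-22h and 8-10h collection bins, hours after egg laying (AEL), with 2 libraries in each bin. They were chosen by their labels alone. Cells were dissociated from embryos, fixed with formaldehyde, stained with an antibody to the Elav protein and sorted, and total RNA depleted of ribosomal RNA was sequenced. Each Elav-positive library had an Elav-negative (Elav-) counterpart, which gave the change of all other cells over the same hours.

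The 8-10h Elav libraries, positive and negative, came from the fly line yw (genotype y1 w1118). The 18-22h Elav libraries came from the line vnd-lexA/VC:FNLDD, which adds to y1 w1118 the insertions M{3x vnd-lexA:Cit}ZH-51C and, as a second one, P{vnd:FNLDD}, so that age and fly line changed together and cannot be told apart in the Elav comparison. All groups shared the yellow-white background. As a comparison within 1 line, the Repo-negative cells of 8-10h and 18-22h, 2 libraries each, all came from vnd-lexA/VC:FNLDD. They hold the cells that Repo staining did not mark, neurons included. The Elav antibody marks neurons of all classes in the central and the peripheral nervous system, so a library is a mixture of neuron types. The study also describes elav as briefly expressed across neurogenic cells when differentiation begins. Elav-positive cells are called neurons here, and the part of precursors or glia among them was not tested. The Elav-negative gate holds glia, muscle, epidermis, blood cells, gut and undifferentiated cells.

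As background, a neuron is born when a ganglion mother cell, the daughter of a neuroblast, divides for the last time. The young neuron leaves the cell cycle, takes on its identity under transcription factors inherited from its lineage or switched on after birth, and extends an axon toward its target. Later it assembles presynaptic release sites, transmitter synthesis, ion channels and receptors, and the embryonic nervous system becomes electrically active before hatching.

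The RNA of elav, the neuronal RNA-binding protein that served as the sorting marker, was at 2064 and 2114 TPM (transcript abundance corrected for length and scaled to the same total in each library) in the 8-10h neurons and at 709 and 862 TPM in the 18-22h neurons. The Elav-negative libraries held 131 and 136 TPM at 8-10h and 52.7 and 68.8 TPM at 18-22h, so that both neuron groups lay above their own negative cells. The 5 neuron markers elav, nSyb, Syt1, brp and fne summed to 3232 and 3819 TPM in the 8-10h neurons, 4553 and 4737 TPM in the 18-22h neurons and 137 to 226 TPM in the 4 Elav-negative libraries. The Elav-positive libraries thus carried neuronal RNA far above the negative ones at both ages. The level of elav itself was lower at 18-22h in both libraries, with a log2 fold change of -1.28 ± 0.45 (SE), which did not pass the test (adjusted p = 0.068, edgeR quasi-likelihood test, Benjamini-Hochberg) except with library totals in place of scaling factors, while fne, a second gene of the ELAV family, was at 749.7 and 1155 and then 1108 and 1419.6 TPM (log2 fold change 0.88, adjusted p = 0.183).

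The 4 neuron libraries held 49.6 and 18.1 M assigned reads at 8-10h and 37.7 and 40.7 M at 18-22h (M, mega). They were not alike in a low background seen across genes. The median level of 160 chemosensory receptor genes was 0.703 and 15.4 TPM in the 8-10h neurons and 10.0 and 3.20 TPM in the 18-22h neurons, and 0.125 to 14.04 TPM in the Elav-negative libraries. The scaling factors of the libraries moved with it, from 0.696 in 8-10h replicate 1 to 1.55 in 8-10h replicate 2, with 1.02 and 0.710 in the 18-22h neurons. The correlation of log2 CPM (read counts scaled to a common library size) between replicates was 0.858 at 8-10h and 0.959 at 18-22h. A level below 15.4 TPM in a neuron library is therefore within the range of this background. Its part in the results was looked at only with the receptor level as a covariate and with single libraries left out.

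Between 8-10h and 18-22h, 912 genes rose and 727 fell in neurons out of 17109 tested, which is 5.33% and 4.25%, or 9.58% together (edgeR quasi-likelihood test over all 48 libraries, adjusted p below 0.05 and a log2 fold change beyond 1 in size). An unadjusted p below 0.05 was reached by 20.0% of the genes, and the median log2 fold change of all genes was 0.03. In such bulk samples fewer cells of a type and less RNA per cell cannot be told apart. Both libraries of one age lay above both of the other, in TMM-scaled CPM, for 911 of the 912 genes that rose and 691 of the 727 that fell, and such separation occurred among all tested genes in 18.6% with 18-22h above and 13.2% with 8-10h above. In the Elav-negative cells 1061 genes rose (6.20%) and 821 fell (4.80%), with 22.7% of genes at an unadjusted p below 0.05. Of the 912 genes that rose in neurons, 450 also rose in Elav-negative cells, which is 49.3% of the neuron list and 42.4% of the Elav-negative list. Of the 727 that fell, 269 fell there as well, or 37.0% and 32.8% of the lists. In the Repo-negative cells of the single fly line 1778 genes rose (10.4%) and 1393 fell (8.14%), and 783 of the 912 genes and 449 of the 727 were among them, 85.9% and 61.8% of the neuron lists and 44.0% and 32.2% of the Repo-negative lists.

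These counts leaned on the libraries and on the spread that all 48 shared. Without replicate 1 of 8-10h the counts were 661 risen and 113 fallen, without replicate 2 of 8-10h 598 and 1563, without replicate 1 of 18-22h 614 and 224, and without replicate 2 of 18-22h 335 and 423. With library totals in place of scaling factors, the median of all genes moved to -0.37 and the split to 644 risen (30.6% of calls, against 55.6%) and 1459 fallen. A fit of the 8 Elav libraries alone called 0 genes in either direction, with 1416 at an unadjusted p below 0.05. That fit removed the call of every gene named below, and no neuron call or difference call named below changed direction in any of the alternatives run.

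The genes of synaptic transmission rose together in neurons. Of 30 genes of the synaptic vesicle and active zone, 24 rose and 0 fell, with a median log2 fold change of 2.09 beside 0.03 for all genes. Their summed level was 2900 and 3505 TPM at 8-10h and 11490 and 10425 TPM at 18-22h. Synaptic RNA was thus present in the young neurons and several fold more abundant in the older ones, and the 2 ages were far apart compared with their replicates.

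Syt1, the calcium sensor of vesicle fusion (chr2L:2772327-2799979, BDGP release 6), was at 109 and 135 TPM in the 8-10h neurons and at 764 and 683 TPM in the 18-22h neurons. The log2 fold change was 2.48 ± 0.46 (adjusted p = 0.00063). The vesicle SNARE protein nSyb went from 196 and 275 to 1249 and 1097 TPM, a log2 fold change of 2.40 ± 0.41 (adjusted p = 0.000316). The active zone scaffold brp, at 112 and 140.5 TPM in young neurons, reached 723 and 676 TPM in older ones (2.55 ± 0.46 on the log2 scale). In all 3 both older libraries lay far above both young ones, with a small gap between replicates. The SNARE regulator cpx had a high level already at 8-10h, 313 and 423 TPM, and rose to 1287 and 1146 TPM (2.01). Rim and Fife, active zone proteins, Rab3 and Syn, vesicle proteins, and cac, the presynaptic calcium channel, rose by log2 fold changes of 2.53, 2.38, 2.39, 2.57 and 2.31.

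Genes of vesicle recycling changed to differing extents. Synj, EndoA and lap rose by 1.55, 1.66 and 1.20 on the log2 scale, and shi, the dynamin, was at 137 and 134 and then 327 and 303 TPM without passing the test (1.30, adjusted p = 0.0589). stnA and stnB, which are read from 1 dicistronic transcript and have the same values, rose by 2.50 and count as 1 observation. The 6 genes without a call were shi, Syx1A, Csp, Sytalpha, Sytbeta and Liprin-alpha. Syx1A, the plasma membrane SNARE, was at 197 and 243 TPM at 8-10h and 433 and 393 TPM at 18-22h. Csp, a vesicle chaperone, was at 268 and 249 TPM at 8-10h and 450.4 and 422 TPM at 18-22h. The scaffold Liprin-alpha stayed near one level, with 121 and 122 TPM and then 112 and 126 TPM (log2 fold change 0.09), the ages overlapping.

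The count of 24 was 21 to 27 in 9 alternative fits, 13 without replicate 2 of 8-10h and 12 without replicate 2 of 18-22h, and 12 of the 24 genes were called with each of the 4 neuron libraries left out in turn, Syt1, nSyb and brp among them. In the Elav-negative cells 11 of the 30 rose, from much lower levels: the list summed to 783 and 827 TPM at 8-10h and 827 and 1019 TPM at 18-22h. Syt1 was at 1.77 and 7.69 TPM and then 11.3 and 27.4 TPM in those cells (2.12 on the log2 scale), so that the ratio moved there as in neurons while the level reached at most 27.4 TPM. The difference between the 2 changes passed the test for 1 of the 30 genes, Syt7, where 0.386% of all genes were higher in neurons by that test. That count was 0 to 8 over 17 alternative fits, with 6 by library totals, 6 by DESeq2 and 8 with the receptor level as a covariate, and 0 without replicate 1 of the 8-10h Elav-negative cells or replicate 2 of either neuron group. The part of neuronal RNA in the Elav-negative libraries was not tested.

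**Figure D1:**
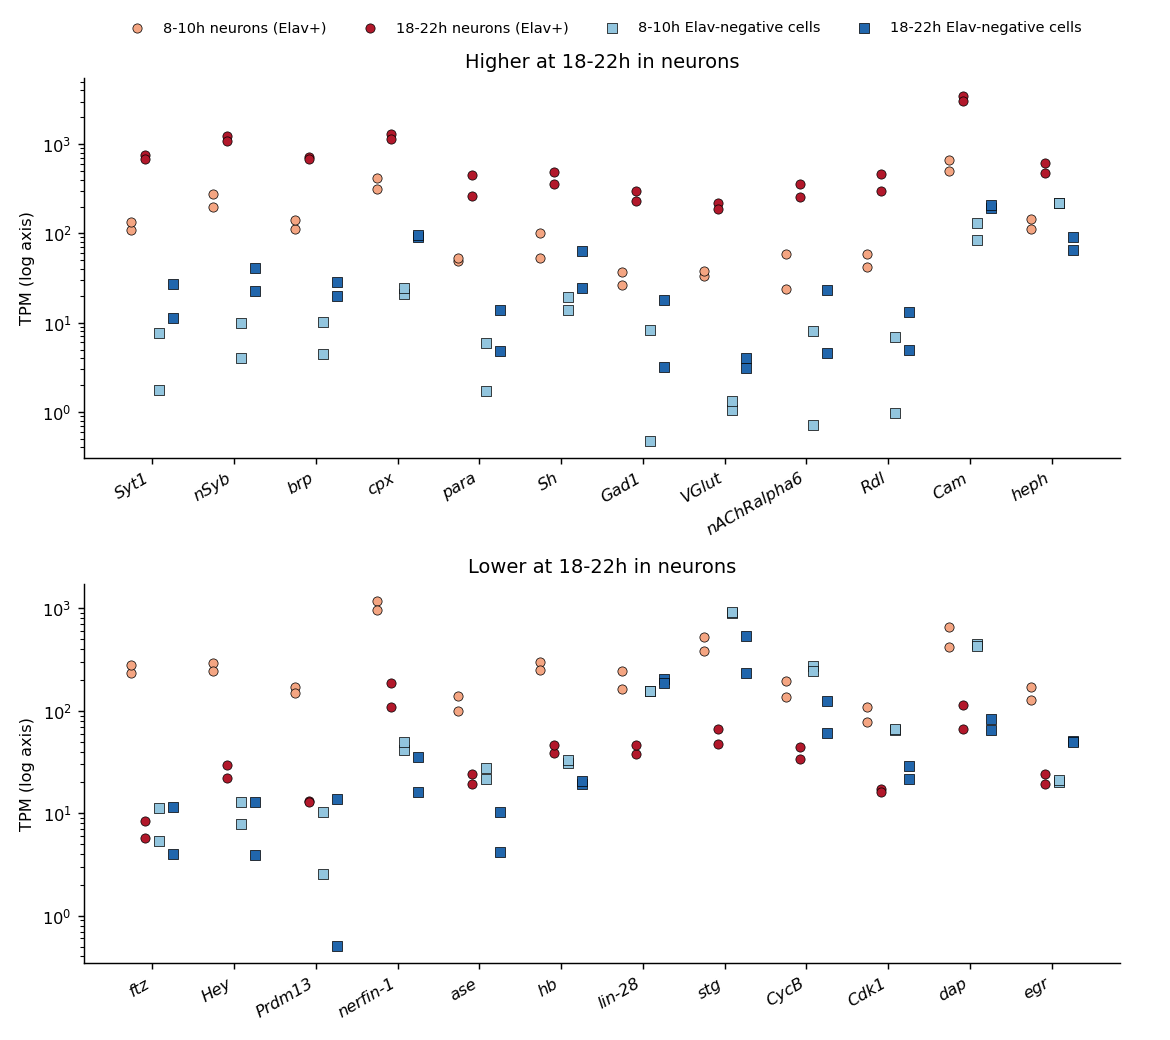
Level in TPM on a log axis of 12 genes that rose and 12 that fell in neurons, with 1 point for each library (circles Elav-positive, squares Elav-negative, pale 8-10h, dark 18-22h, 2 libraries a group). The circles of the 2 ages do not overlap for any of the genes drawn, for example 109 and 135 TPM against 764 and 683 TPM for Syt1, and 236 and 282 TPM against 8.38 and 5.78 TPM for ftz.

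Of 15 genes of transmitter synthesis and vesicular transport, 8 rose, 0 fell and 7 did not pass the test (median log2 fold change 1.95). Gad1, which makes GABA, was at 26.4 and 37.3 TPM in young and 300.1 and 228 TPM in older neurons, with a log2 fold change of 3.18 ± 0.74 (adjusted p = 0.0047). VGlut, the vesicular glutamate transporter, went from 32.9 and 37.7 to 221 and 189 TPM (2.64 ± 0.50, adjusted p = 0.000829). VAChT, which loads acetylcholine into vesicles, had the highest level of the 3 at both ages, 141 and 129 and then 542 and 520.3 TPM (1.96). ChAT, which makes acetylcholine and shares its locus with VAChT, was at 15.9 and 32.1 and then 61.5 and 49.8 TPM and did not pass the test (1.66, adjusted p = 0.24), and reads of overlapping genes on 1 strand can be split uncertainly between them. VGAT, the vesicular GABA transporter, was at 36.0 and 45.3 and then 141 and 141 TPM and did not pass either (adjusted p = 0.0682). Key genes of acetylcholine, glutamate and GABA transmission thus lay above the receptor median at 8-10h already.

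Among the genes of monoamines, Vmat, the shared vesicular transporter, rose from 79.2 and 145 to 352 and 346 TPM. Tdc2 and Tbh, enzymes of tyramine and octopamine synthesis, rose by 1.48 and 1.94 on the log2 scale, and ple, tyrosine hydroxylase, was low and rose by 1.90, from 3.03 and 12.4 to 26.02 and 19.4 TPM. For Ddc, DAT, Trhn, SerT and prt the test was not passed; the 8-10h replicate 2 held more of each than replicate 1, the direction of its receptor background. The count of 8 fell to 2 without replicate 2 of 8-10h, to 3 without replicate 2 of 18-22h and to 5 with library totals. In Elav-negative cells 6 of the 15 rose, and the difference between the 2 changes passed the test for 0 of the 15.

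Most ion channel genes on the list rose. Of 31 voltage-gated and leak channel genes 20 rose and 0 fell (median 2.01), and the count stayed between 15 and 19 when any 1 neuron library was left out. para, the voltage-gated sodium channel of action potentials, went from 48.6 and 53.1 to 448 and 264 TPM, a log2 fold change of 2.80 ± 0.54 (adjusted p = 0.000876). The potassium channel gene Sh rose from 52.6 and 101 to 486 and 359 TPM (2.75 ± 0.42, adjusted p = 0.000108). The calcium-activated potassium channels slo and SK rose by 2.79 and 2.32, the HCN channel Ih by 2.52, and the calcium channel subunits cac, Ca-alpha1D, Ca-alpha1T, Ca-beta and stj by 1.89 to 2.45. NaCP60E, the second gene of the sodium channel family, was at 73.4 and 67.5 and then 118 and 103 TPM (adjusted p = 0.661). The inward rectifiers Irk1, Irk2 and Irk3 and the leak channels sand and Ork1 were at or near background in all 4 libraries, from 1.30 to 28.1 TPM.

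Shal, the potassium channel of fast transient currents, behaved differently in the other cells. It was at 41.0 and 59.9 TPM in young and 176 and 159 TPM in older neurons (1.99 ± 0.37), and at 30.7 and 32.7 TPM and then 6.55 and 25.1 TPM in Elav-negative cells, where it fell (-1.19 ± 0.36). The changes differed by 3.18 ± 0.52 on the log2 scale (adjusted p = 0.00168), a call that was lost without replicate 1 of the 8-10h Elav-negative cells. In Elav-negative cells 10 of the 31 channel genes rose and 1, Shal, fell. Shal was the only 1 of the 31 for which the difference between the 2 changes passed the test, where 0.386% of all genes were higher in neurons by it.

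Of 42 transmitter receptor genes 25 rose and 0 fell in neurons (median 2.19), and 6 rose in Elav-negative cells. The difference between the 2 changes passed the test for 1 of the 42, nAChRbeta2, where 0.386% of all genes were higher in neurons by that test. The nicotinic acetylcholine receptor subunit nAChRalpha6 went from 23.7 and 58.2 to 362 and 256 TPM (3.15 ± 0.66, adjusted p = 0.002), and the GABA receptor subunit Rdl from 42.2 and 58.6 to 462 and 296 TPM (2.99 ± 0.62, adjusted p = 0.00169). Both kept their call with each neuron library left out. Of the 10 nicotinic subunits 8 rose. nAChRalpha2, at 13.6 and 30.4 and then 121 and 99.3 TPM, did not pass the test (adjusted p = 0.101), and nAChRbeta3 was at 6.52 TPM or less in the 4 neuron libraries but at 123 and 90.9 and then 173 and 53.0 TPM in Elav-negative cells. nAChRbeta2 rose from 25.0 and 22.8 to 132 and 117 TPM, and its change differed from that of the Elav-negative cells (2.56 ± 0.44, adjusted p = 0.00337), where it was at 10.4 and 14.1 and then 3.94 and 15.5 TPM. That call was lost without replicate 1 of the 8-10h Elav-negative cells and without replicate 2 of the 18-22h neurons.

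The glutamate receptors GluClalpha, Nmdar1, Nmdar2, GluRIB, mGluR and KaiR1D rose by 2.10 to 2.78 on the log2 scale. G protein-coupled receptors rose in part: Dop2R, DopEcR, 5-HT1A, 5-HT7, Octbeta1R, Octbeta2R, mAChR-A, GABA-B-R1 and GABA-B-R2 passed the test, with changes from 1.35 to 2.80, while Dop1R1, Dop1R2, 5-HT1B, 5-HT2A, 5-HT2B, Oamb, Oct-TyrR, mAChR-B and GABA-B-R3 did not. For HisCl1 and ort, histamine receptors used mainly in the adult visual system, the levels were at most 18.4 TPM and the ages overlapped. The count of 25 was 13 to 20 with 1 neuron library left out, lowest without replicate 2 of 8-10h and 14 without replicate 2 of 18-22h, and 16 with library totals.

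Cam, calmodulin, the calcium-binding partner of many channels and enzymes, was among the 10 protein-coding genes with the highest TPM at 18-22h. It held 497 and 664 TPM in young and 3488 and 3026 TPM in older neurons (2.52 ± 0.45, adjusted p = 0.000415). The catalytic subunit of the sodium pump, Atpalpha, rose from 982 and 1147 to 2830.4 and 2568 TPM (1.65, adjusted p = 0.0237), a call lost when any 1 of the neuron libraries was left out. The locus of Cam contains a noncoding gene, lncRNA:CR43900, on the same strand. The rest of that group were translation genes, 14-3-3epsilon, fax, Bacc and the histone genes His3.3B and His4r, none of which passed the test.

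Fewer genes of peptide signalling passed the test. Of 36 neuropeptide and hormone genes 2 rose, Nplp1 from 22.9 and 34.3 to 143 and 137 TPM and Nplp2 from 49.7 and 71.5 to 332 and 186 TPM. That share is close to the 5.33% of all genes. The median log2 fold change of the list was 1.29, beside 0.03 for all genes, and 0.75 to 2.36 over 14 alternative fits. Both 18-22h libraries lay above both 8-10h libraries for 26 of the 36, beside 18.6% of all genes, and 1 was separated the other way. Nplp2 was far higher in Elav-negative cells, at 495 and 461 and then 10889 and 2978 TPM, where it rose too (4.52), and its call in neurons was lost when any 1 neuron library was left out. Of 11 genes of peptide processing and dense core vesicles 4 rose: amon, the prohormone convertase, from 15.6 and 20.4 to 99.98 and 87.0 TPM, IA-2, a dense core vesicle protein, from 43.2 and 42.3 to 367 and 264 TPM (2.88 ± 0.49, adjusted p = 0.000333), and Pal2 and Fur2 by 1.88 and 1.53. dimm, the transcription factor of peptidergic cells, was at 7.04 and 24.1 and then 34.02 and 25.0 TPM (adjusted p = 0.287). Of 20 clock and sensory neuron genes 1 rose, a share like the 5.33% of all genes. It was ppk, a channel of multidendritic sensory neurons, from 19.8 and 20.1 to 148 and 65.2 TPM (2.43, adjusted p = 0.00797), a call lost without replicate 2 of 8-10h and without replicate 1 of 18-22h.

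**Figure D2:**
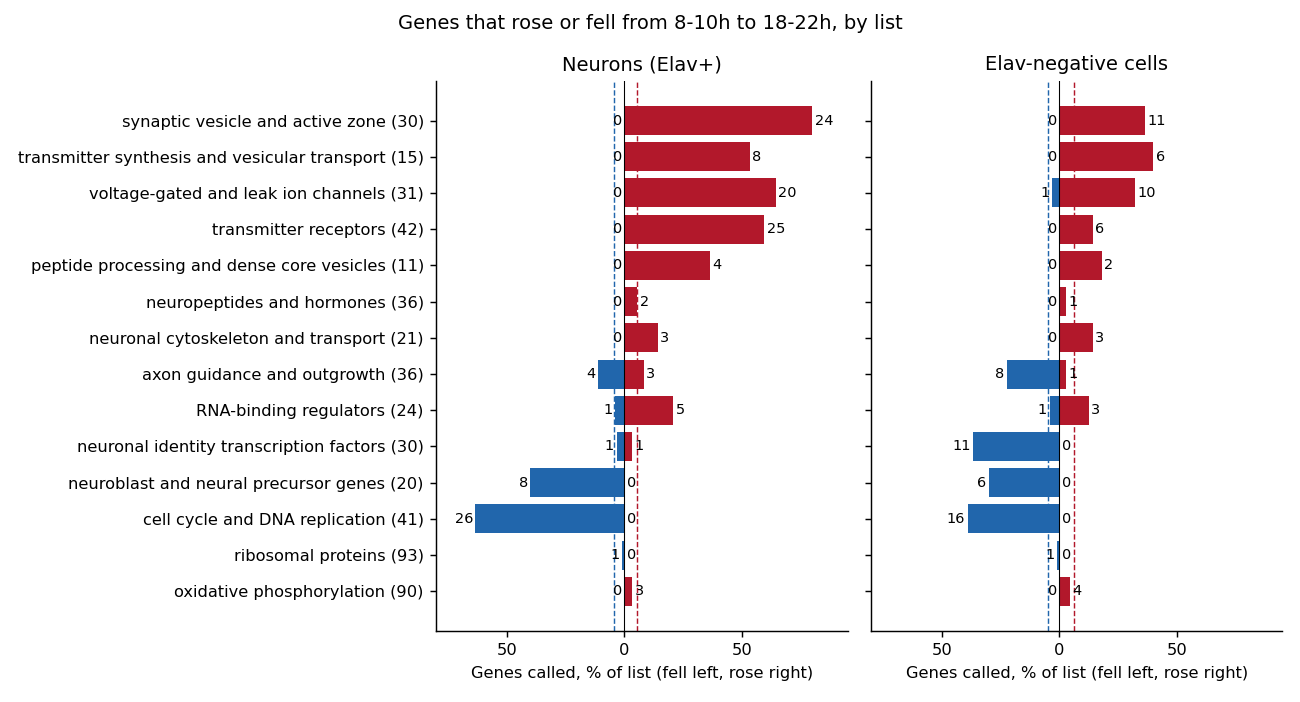
Percent of the tested genes of each list that rose (right, red) or fell (left, blue) from 8-10h to 18-22h in neurons and in Elav-negative cells, with the number of genes at each bar and the number tested in brackets. Dashed lines mark the share of all 17109 genes; in neurons the synaptic list had 24 of 30 risen and the cell cycle list 26 of 41 fallen.

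Most cell cycle genes on the list fell. Of 41 genes of the cell cycle and DNA replication 26 fell and 0 rose in neurons, with a median log2 fold change of -1.45, and 16 fell in Elav-negative cells (median -1.07). Their summed level went from 3765 and 2994 TPM to 894 and 1056 TPM in neurons. In Elav-negative cells it went from 3922 and 3916 TPM to 1592 and 1430 TPM, so at 8-10h the level in neurons was not far below that of the other cells. No difference between the 2 changes passed the test for any of the 41 (22 genes in all, 0.129%, were lower in neurons by that test).

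stg, the phosphatase that triggers mitosis (chr3R:29251826-29255800), was at 522 and 381 TPM in young and 46.9 and 66.5 TPM in older neurons, a log2 fold change of -2.94 ± 0.59 (adjusted p = 0.00137). Cdk1, the mitotic kinase, went from 109 and 77.3 to 17.3 and 16.2 TPM (-2.59 ± 0.43, adjusted p = 0.000281). The mitotic cyclins CycA, CycB and CycB3 fell by 2.29, 2.03 and 2.12 on the log2 scale, and genes of cytokinesis and the spindle midzone, pav, tum, scra and Incenp, by 2.14 to 2.70. dap, an inhibitor of cyclin-dependent kinases that is switched on as cells leave the cycle, had the highest level of the list in young neurons, 653 and 416 TPM, and fell to 67.0 and 114 TPM (-2.52 ± 0.52). Replication genes changed less evenly: Mcm2, Mcm3, Mcm7 and dpa fell, while Mcm5 and Mcm6 did not pass the test, at 12.9 to 21.9 TPM in young and 7.88 to 11.9 TPM in older neurons. cmet, a kinesin of the kinetochore outside the list, fell from 45.2 and 36.4 to 5.58 and 5.61 TPM (-2.91, adjusted p = 3.66e-05).

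The count for this list moved with single libraries. It was 26 with all libraries, 31 without replicate 2 of 8-10h, 22 without replicate 2 of 18-22h, 7 without replicate 1 of 18-22h and 2 without replicate 1 of 8-10h, the deeper of the young libraries. Replicate 1 of 8-10h also had the lower receptor median of the young neuron libraries, 0.703 against 15.4 TPM, and which of these traits mattered was not tested. The median of the list was negative in each of the 14 alternative fits, from -1.97 to -0.74. The lowest level of the 18-22h libraries for many of these genes was near the receptor background, so that a fold below that level was not detectable.

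Genes of neuroblasts and neural precursors fell in part. Of 20 such genes 8 fell and 0 rose in neurons (median -0.80), and 6 fell in Elav-negative cells. The difference between the 2 changes passed the test for 0 of the 20. nerfin-1, a zinc finger gene of neural precursors and newborn neurons, was among the most abundant of them at 8-10h, 1178 and 954 TPM, and reached 108 and 189 TPM (-2.75 ± 0.49, adjusted p = 0.000425). ase, a transcription factor of neuroblasts, went from 139 and 101 to 23.9 and 19.3 TPM (-2.54 ± 0.39, adjusted p = 0.000127), insc, which orients the neuroblast spindle, from 143 and 84.3 to 17.8 and 23.8 TPM, and tap, a bHLH gene, from 505 and 305 to 56.9 and 73.4 TPM. sna, a Snail family gene at 393 and 383 TPM in young neurons, fell by 2.45 on the log2 scale. esg, of the same family, was at 236 and 238 TPM in young neurons and fell by 1.76. pon and l(1)sc completed the 8, with levels of at most 19.7 TPM at 18-22h.

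The other 12 genes of the list did not pass the test. pros, the homeodomain gene that ganglion mother cells inherit, was at 225 and 102 TPM at 8-10h and 158 and 127 TPM at 18-22h (adjusted p = 0.936). The Snail family gene scrt was at 419 and 578 and then 432 and 513 TPM (adjusted p = 0.613). Of the Sox genes, SoxN was at 94.3 and 91.3 and then 119.8 and 126 TPM (adjusted p = 0.804), and D at 103 and 85.9 and then 102 and 81.6 TPM. The neuroblast genes dpn, wor and mira were low at both ages, at 19.9 to 101 TPM. The count of 8 was 2 without replicate 1 of 8-10h and 4 without replicate 1 of 18-22h, and nerfin-1 and ase were the 2 that kept their call with each neuron library left out.

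Of the 7 temporal factors, which neuroblasts express in turn and hand to their progeny, hb passed the test. hb, the earliest of them, was at 297 and 252 TPM in young and 38.8 and 46.8 TPM in older neurons (-2.63 ± 0.47, adjusted p = 0.000473; lost without replicate 1 of 8-10h). Of the later ones, Kr was at 392 and 403 TPM and then at 176 and 188 TPM (adjusted p = 0.189). pdm2 was at 192 and 173 TPM and then at 53.8 and 53.4 TPM (adjusted p = 0.0622). cas was at 248 and 260.5 TPM and then at 77.7 and 95.01 TPM (adjusted p = 0.0516). These 3 were lower in both older libraries without passing the test. svp was at 86.2 and 75.1 and then 91.5 and 104.04 TPM. With library totals 4 of the 7 were called lower, and without replicate 2 of 8-10h 5 were.

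Several of the genes with the largest falls are developmental regulators. ftz, a pair-rule segmentation gene that is reused in subsets of neurons (chr3R:6864324-6866244), was at 236 and 282 TPM at 8-10h and at 8.38 and 5.78 TPM at 18-22h, the largest fall among the called protein-coding genes of at least 10 CPM (-5.10 ± 0.46, adjusted p = 9.57e-08). In Elav-negative cells it was at 5.38 and 11.4 and then 4.03 and 11.5 TPM, low levels beside receptor medians of 0.476 and 7.496 TPM and then 0.125 and 14.04 TPM in the same libraries, and the fitted change was -0.08 ± 0.39. The difference of -5.02 ± 0.58 (adjusted p = 2.63e-05) was about the size of the fall in neurons alone, and with so low a level elsewhere it adds little to that fall. Hey, a bHLH target of Notch signalling, went from 291 and 245 to 22.1 and 29.7 TPM (-3.33 ± 0.45, adjusted p = 3.93e-05) and differed from its change in Elav-negative cells by -2.97 ± 0.60 (adjusted p = 0.0138). Its Elav-negative levels were also low, at most 12.95 TPM, and the call of the difference was lost in 5 of the 8 fits that leave out 1 Elav library. Prdm13, a zinc finger gene, went from 172 and 148 to 13.1 and 12.8 TPM (-3.68 ± 0.63, adjusted p = 0.000331), with a difference of -3.46 ± 0.83 that did not pass (adjusted p = 0.0502). spdo, a regulator of Notch in asymmetric divisions that overlaps PH4alphaEFB on the same strand, fell by 2.98, and gsb-n, a paired-type homeodomain gene, by 3.03. The remaining genes named by that rule were CG5235, sala, CG32318, Phs and CG14006, with falls of 2.97 to 3.67 on the log2 scale. sala fell in Elav-negative cells too (-3.87), from 2277 and 2251 to 138 and 102 TPM, against 269 and 107 TPM in the 8-10h neurons. CG5235 and CG14006 also fell in Elav-negative cells, while CG32318 and Phs did not pass the test there.

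In the Repo-negative cells of 1 fly line ftz fell as well (-3.05 ± 0.42, adjusted p = 3.65e-06), nerfin-1 and hb fell by 1.53 and 1.82, while for Hey and Prdm13 the changes were -0.37 and -0.42 and did not pass the test. The synaptic genes rose there in 21 of 30 cases, with 4.53 ± 0.50 for Syt1. The cell cycle genes fell in 31 of 41. The neuron markers elav, nSyb, Syt1, brp and fne summed in the Repo-negative cells to 369 and 410 TPM at 8-10h and 1381 and 1129 TPM at 18-22h. A changed share of neurons among these cells cannot be told apart from a change within neurons, and its part was not tested.

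Of the genes that name neuron classes, 2 passed the test, where 9.58% of all genes were called in either direction. Of 30 identity transcription factors 1 rose, ct, a homeodomain gene of sensory neurons, from 94.9 and 95.7 to 304 and 328 TPM, and 1 fell, exex, a homeodomain gene of motor neurons, from 177 and 183 to 53.0 and 68.9 TPM. The median of the list was -0.08 beside 0.03 for all genes, and its sign changed between alternative fits. In Elav-negative cells 11 of the 30 fell. The difference of the 2 changes had a median of 0.91, which was 0.43 to 1.49 over 17 alternative fits, and passed the test for 0 of the 30. In those fits it was called higher in neurons for 0 to 12 of the 30, with 12 under the receptor covariate, 9 by DESeq2 and 8 with library totals, and lower for 0 to 2. onecut, a homeodomain gene of differentiating neurons, was at 327 and 298 TPM in young and 263 and 286 TPM in older neurons. vvl, a POU gene, was at 194 and 224 TPM in young and 214 and 265 TPM in older neurons, and its ages overlapped. With library totals 6 were called lower, without replicate 2 of 8-10h 7 were, and the call of ct was lost when replicate 2 of 8-10h or either 18-22h library was left out.

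Few axon guidance genes passed the test, and those that did went both ways. Of 36 genes 3 rose, robo3, Sema2b and futsch, and 4 fell, robo2, NetA, beat-Ia and trn. Among all genes 5.33% rose and 4.25% fell. robo3, a receptor of the midline repellent Slit, went from 94.2 and 90.3 to 355 and 434 TPM (2.18 ± 0.57, adjusted p = 0.0117), while robo2, of the same family, went from 429 and 304 to 105 and 132 TPM (-1.64 ± 0.49, adjusted p = 0.0298) and robo1 was at 354 and 309 and then 201 and 223 TPM (adjusted p = 0.517). NetA, a secreted netrin, fell from 124 and 92.4 to 29.3 and 32.2 TPM, and beat-Ia, needed for motor axons to leave their bundle, from 356 and 423 to 119 and 148 TPM. The cell adhesion genes Dscam1, Fas2 and Nrg were high at both ages, at 431 to 704 TPM, without a change that passed. Each of the 7 calls was lost with at least 1 neuron library left out; with library totals 8 genes were called lower, and the sign of the list's median of -0.23 changed between fits.

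The neuronal cytoskeleton had 3 risen genes of 21, all microtubule-associated, beside 5.33% of all genes. tau went from 98.8 and 142 to 486 and 488 TPM (2.003 ± 0.42, adjusted p = 0.00204), stai, a stathmin, from 231 and 281 to 527 and 579 TPM, and futsch, the MAP1B homologue, from 69.2 and 55.0 to 168 and 159.9 TPM. The tubulins alphaTub84B and betaTub56D lay between 734 and 1838 TPM in the 4 libraries and the ages overlapped. unc-104, the kinesin that carries synaptic vesicle precursors, was at 135 and 124 and then 315 and 269 TPM (adjusted p = 0.0541). The calls of tau, stai and futsch were each lost without replicate 2 of 18-22h.

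Of 24 RNA-binding regulators 5 rose and 1 fell, beside 5.33% and 4.25% of all genes. heph, the polypyrimidine tract-binding protein (chr3R:31846987-32015520), went from 111 and 146 to 611 and 470.4 TPM in neurons (2.34 ± 0.38, adjusted p = 0.000189) and from 218 and 219 to 65.4 and 90.6 TPM in Elav-negative cells, where it fell (-1.35 ± 0.36). The difference, 3.69 ± 0.52 (adjusted p = 0.0008), was the largest among the called protein-coding genes of at least 10 CPM with a higher change in neurons. orb2, the CPEB homologue, rose from 91.7 and 105 to 344 and 347 TPM, ps, the Nova homologue, from 149 and 167 to 632 and 611 TPM, and bru1 and bru3, of the CELF family, by 1.48 and 1.06. lin-28, an RNA-binding gene of early stages, fell from 242 and 163 to 38.1 and 46.3 TPM (-2.38 ± 0.45, adjusted p = 0.000764), while in Elav-negative cells it was at 155 and 157 and then 202 and 187 TPM. The difference for lin-28, -2.97 ± 0.62 (adjusted p = 0.0184), was lost with any of 6 libraries left out.

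Imp and Syp, an opposing pair of temporal RNA-binding genes in later neuroblasts, did not pass the test. Imp was at 1002 and 1455 TPM in young and 607 and 669.7 TPM in older neurons. Syp was at 11.1 and 28.4 TPM in young and 15.3 and 11.6 TPM in older neurons, and the ages overlapped. chinmo was at 428 and 568 TPM in young and 658 and 744 TPM in older neurons (log2 fold change 0.82, adjusted p = 0.422). In Elav-negative cells it rose from 28.3 and 28.7 to 496 and 253 TPM (4.29 ± 0.57), and the difference was -3.47 ± 0.72 (adjusted p = 0.0184), also lost with any of 6 libraries left out.

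Few noncoding genes passed the test. Of 2408 tested 13 rose (0.540%) and 33 fell (1.37%), below the shares of all genes. lncRNA:mimi rose from 159 and 203 to 1159.5 and 1204 TPM (2.81 ± 0.39, adjusted p = 4.98e-05), the largest rise among noncoding genes by the rule used here, followed by lncRNA:CR44922, lncRNA:CR45939 and lncRNA:cherub. Among those that the study text discusses, which is not independent evidence of direction, 3 rose (lncRNA:cherub, lncRNA:CR44024 and lncRNA:CR44978) and 3 fell (lncRNA:CR32730, lncRNA:CR46003 and lncRNA:CR44272) of 8. lncRNA:CR44272 went from 295 and 288 to 48.1 and 82.1 TPM (-2.20 ± 0.60, adjusted p = 0.0159) and lncRNA:cherub from 15.8 and 48.5 to 88.9 and 105 TPM, with the latter rising in Elav-negative cells too (3.00). None of the 6 kept its call with each neuron library left out. asRNA:CR43470, asRNA:CR44897, lncRNA:CR43887 and lncRNA:CR45921 had the largest falls, from -2.54 to -3.42; lncRNA:CR45921 and lncRNA:CR45939 lie within the coding genes Eip75B and ftz-f1 on the same strand, so that reads could be shared.

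Neuron change and Elav-negative change were compared directly for every gene. The change was higher in neurons for 66 genes (0.386%) and lower for 22 (0.129%), together 0.514%, and 1354 of 17109 (7.91%) had an unadjusted p below 0.05. These 88 included 43 of the genes that rose and 9 of those that fell in neurons. Besides Syt7, Shal, nAChRbeta2, heph, ftz, Hey, lin-28 and chinmo, the genes named were CG31221, CG13921, NimC4, zld, beat-IIb and sca, the last from the axon guidance list, as higher, and egr, Ect3, CG11147 and E(spl)m6-BFM as lower.

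Syt7, a calcium sensor of the synaptotagmin family, rose in neurons from 49.8 and 72.9 to 288 and 265 TPM (2.45 ± 0.30) and was at 18.6 and 20.5 and then 12.4 and 28.9 TPM in Elav-negative cells, a difference of 2.27 ± 0.42 (adjusted p = 0.00581). zld, the activator of the early zygotic genome, rose from 151 and 182 to 438 and 498 TPM in neurons and fell from 187 and 175 to 44.6 and 40.5 TPM in the other cells (difference 3.35 ± 0.66, adjusted p = 0.0109). egr, the fly tumour necrosis factor, fell from 173 and 127 to 19.1 and 23.99 TPM in neurons and rose from 20.3 and 21.1 to 50.3 and 50.2 TPM elsewhere (difference -4.38 ± 0.67, adjusted p = 0.00103). E(spl)m6-BFM, of the Bearded family of Notch regulators, went from 147 and 184 to 37.8 and 51.5 TPM in neurons. NimC4, an engulfment receptor, had its difference from the Elav-negative side, 796 and 610.3 to 33.5 and 71.3 TPM, with 65.3 and 53.2 and then 60.8 and 41.4 TPM in neurons, and it overlaps nAChRalpha5 on the same strand. The differences of ftz, egr, heph and CG31221 were called with each of the 8 Elav libraries left out, and beat-IIb, which overlaps CG44259, lost its call only with library totals and in the fit of 8 libraries; those of Syt7, zld and NimC4 were lost without replicate 1 of the 8-10h Elav-negative cells, replicate 2 of the 8-10h neurons or replicate 2 of the 18-22h neurons.

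The number of such genes moved widely. It was 3 higher and 2 lower without replicate 1 of the 8-10h Elav-negative cells, 179 and 292 without replicate 2 of the 18-22h Elav-negative cells, 147 and 20 without replicate 1 of the 8-10h neurons, 18 and 44 without replicate 2 of the 8-10h neurons, 121 and 10 without replicate 1 of the 18-22h Elav-negative cells, 33 and 3 without replicate 1 of the 18-22h neurons and 8 and 3 without replicate 2 of the 18-22h neurons. With library totals it was 402 and 237.

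**Figure D3:**
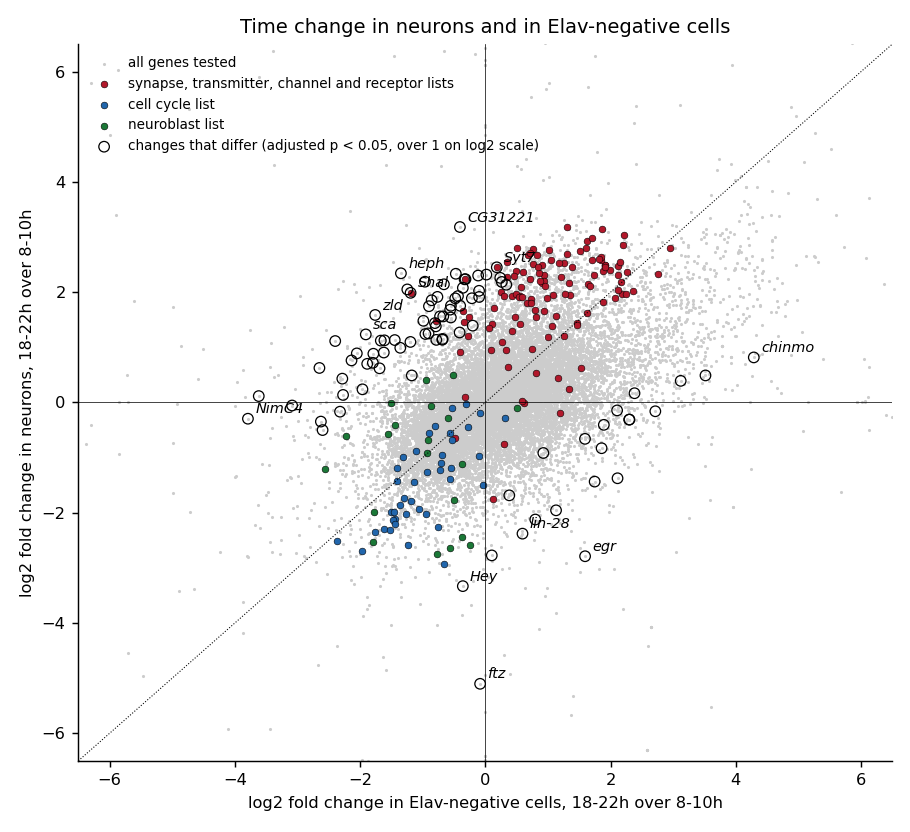
Log2 fold change from 8-10h to 18-22h in neurons (vertical) against that in Elav-negative cells (horizontal) for the 17109 genes tested, of which 92 lie outside the axes at 6.5. Red points are the synaptic, transmitter, channel and receptor lists, blue the cell cycle list and green the neuroblast list; open circles mark the 88 genes whose changes differed, with ftz at -5.10 in neurons and -0.08 in Elav-negative cells.

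By the rule of largest change, the 12 protein-coding genes with the largest rises were Cpr65Ea, MtnA, Osi15, CG13049, CG2962, TwdlF, Osi19, Osi20, CG13044, mthl8, CG14147 and Twdlbeta, with log2 fold changes from 3.69 to 5.20. Cpr65Ea, TwdlF and Twdlbeta are cuticle proteins, the Osi genes form the Osiris family of epithelia that secrete cuticle, and MtnA is a metallothionein. All 12 rose in Elav-negative cells as well. Cpr65Ea was at 3.34 and 19.7 TPM in the 8-10h neurons and 284 and 337 TPM in the 18-22h neurons, against 27.1 and 34.9 TPM and then 893 and 452 TPM in Elav-negative cells. Osi15 went from 32.8 and 29.6 to 453 and 789 TPM in neurons and from 200.2 and 109.6 to 3509 and 2292 TPM in Elav-negative cells. At 18-22h both Elav-negative libraries lay above both neuron libraries, in TPM, for each of the 12 except CG13044 and mthl8. In TMM-scaled CPM, Cpr65Ea and CG13049 were exceptions too, with overlapping values. CG13044 was at 190.3 and 58.0 TPM and mthl8 at 23.1 and 19.3 TPM in the 18-22h neurons, and both calls were lost in at least 3 of the 4 fits that leave out 1 neuron library.

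Markers of other cell types moved with age in the neuron libraries. Of 13 muscle markers 12 rose in neurons, and their summed level was 395 and 331 TPM at 8-10h and 1199 and 1798 TPM at 18-22h, against 1960 and 1692 TPM and then 5516 and 5457 TPM in Elav-negative cells. The count was 10 without replicate 1 of 8-10h, 8 without replicate 2 of 8-10h, 11 without replicate 1 of 18-22h and 3 without replicate 2 of 18-22h. Mhc, the muscle myosin heavy chain, was at 18.1 and 25.6 and then 108 and 161 TPM in neurons. Of 11 markers of epidermis and cuticle 4 rose (summed level 80.0 and 282 TPM, then 446 and 535 TPM), of 6 tracheal markers 3 (160 and 215 TPM, then 430.5 and 797 TPM), of 7 fat body markers 2, Adh and apolpp (60.03 and 106 TPM, then 249.5 and 342 TPM), and of 11 haemocyte markers 2, the collagens Col4a1 and vkg. The haemocyte sum was 171 and 282 TPM, then 586 and 607 TPM, in neurons, and 8510 to 22735 TPM in the older Elav-negative libraries. Of 9 gut markers and 4 germ cell markers 0 passed the test. No muscle, epidermis, haemocyte or tracheal marker was at 0 in any neuron library, and of the fat body markers Lsp1alpha was at 0 in 8-10h replicate 1 and Lsp2 in 18-22h replicate 2. Their part in the rises above, the cuticle genes included, was not tested.

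Glial markers split: of 10, Eaat1 and Gs2, which take up glutamate and convert it to glutamine, rose and gcm, the switch gene of glial fate, fell from 102 and 104.07 to 13.1 and 12.8 TPM (-2.90 ± 0.45). The summed glial level was 397 and 398 TPM at 8-10h and 390 and 373 TPM at 18-22h. In Elav-negative cells it was 447 and 415 TPM and then 556 and 462 TPM, so this list was only a little lower in the neuron libraries. repo itself is a member of the list without a call. As a check of the fly line, vnd, the gene after which the transgenes of the 18-22h line are named, was at 80.0 and 76.1 TPM in the 8-10h neurons and 31.7 and 32.9 TPM in the 18-22h neurons (-1.15 ± 0.35, adjusted p = 0.0322), a call lost without replicate 1 of 8-10h or with either 18-22h library left out. The other genes of that check, w and y, did not pass the test in neurons, with log2 fold changes between 0.76 and 1.52. In Elav-negative cells 0 of the 3 passed, with a median of 1.75.

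**Figure D4:**
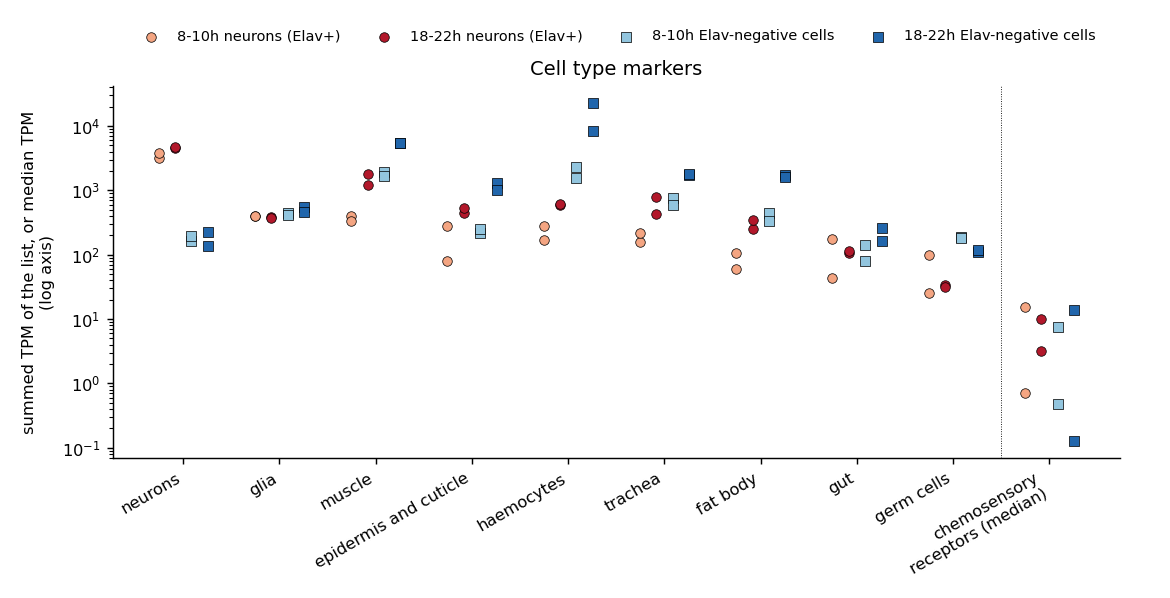
Summed TPM of marker lists of 9 cell types, and at the right the median TPM of 160 chemosensory receptor genes, on a log axis with 1 point a library (2 libraries a group). Neuron markers lie between 3232 and 4737 TPM in the Elav-positive libraries and between 137 and 226 TPM in the Elav-negative ones, while muscle markers rise in both, to 1199 and 1798 TPM in the 18-22h neurons.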

How the data were processed

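Embryo cells sorted on Elav or Repo staining gave ribosome-depleted, strand-marked paired-end RNA libraries. Per the labels and the study's methods, the authors quantified transcripts of FlyBase 6.15 (dm6) with Salmon 0.8.1 in stranded mode and deposited estimated counts and TPM per transcript, without pooling replicates. The deposited TPM values are scaled by the authors to the same total in each library. Transcripts were summed to 17257 genes, and 305 of 34428 transcripts without a gene match (0.241 to 0.502% of reads) were left out. Deposited tables of the authors' own contrasts (mean normalised counts, log2 fold changes, errors and p-values from DESeq2) were not used.

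Estimated counts were rounded and fitted in R 4.3.3 with edgeR 4.0.16 (limma 3.58.1): 48 libraries, 24 group means, TMM scaling factors, edgeR's filter on low counts, and quasi-likelihood tests with Benjamini-Hochberg adjustment over 17109 genes. A call needed an adjusted p below 0.05 and a log2 fold change beyond 1 in size. The SE given after ± was derived from the test, as the size of the log2 fold change over the square root of its F statistic. It is thus an approximate value and was not estimated by the fit itself. Sequencing depth was 18.1 to 113 M (mega) assigned reads, and the depth alone sets only the counting error. Replicates are biological duplicates per the study's methods. The rule for named genes took all list members, the 12 called protein-coding and 4 noncoding genes with the largest change each way that had at least 10 CPM and groups that did not overlap, 6 called protein-coding genes each way for the difference between neuron and Elav-negative change, and the 10 protein-coding genes of highest TPM at each age. Members, lists and rules were chosen with earlier results of these data known. Dl, nos, Rh6 and Ank1 were not used here. The fit was tested on simulated counts for the neuron comparison, where of 50 genes each, 30 of those lowered by a log2 change of 3 and 31 of those raised by 3 were called, 14 and 17 at a change of 2, with 5 false calls among 16894 unchanged genes. The simulated counts were drawn independently for each gene and library, without the background seen across genes in these libraries. The number of false calls in the real data was therefore not measured. Alternatives were DESeq2 1.42.0, other scaling, no filter, counts from length-scaled TPM, a receptor covariate, replicate blocks, a fit of 8 libraries, and each library left out.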

Additional observations from a re-analysis of the deposited data

Results flagged for a closer look

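Each of these 25 genes changed differently with age in neurons and in Elav-negative cells by a test of the difference itself (edgeR quasi-likelihood, Benjamini-Hochberg over 17109 genes, adjusted p from 2.63e-05 to 0.0257), with 2 libraries in each of the 4 groups. Of the 25 calls, 20 were lost without replicate 1 of the 8-10h Elav-negative cells, and the 5 kept with each Elav library left out were heph, CG31221, beat-IIb, ftz and egr. In the Elav-negative libraries ftz and Hey stayed below 14.04 TPM, the highest receptor median of those libraries. The values are log2 differences, neuron change minus Elav-negative change. The difference was higher in neurons for heph (3.69), CG31221 (3.59), CG13921 (3.51), NimC4 (3.50), zld (3.35), beat-IIb (3.30), Shal (3.18), sca (3.14), nAChRbeta2 (2.56) and Syt7 (2.27). It was lower for ftz (-5.02), egr (-4.38), Ect3 (-3.49), chinmo (-3.47), CG11147 (-3.18), E(spl)m6-BFM (-3.09), lin-28 (-2.97) and Hey (-2.97).

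A further 7 of the genes higher in neurons were chosen after their values were seen. They are chn (3.15), a zinc finger gene of the nervous system, dac (2.28), a transcription factor, the adhesion genes beat-IIa (2.80) and side-VII (1.92), the secreted factor miple1 (2.71), and the homeotic genes Scr (2.53) and Abd-B (2.20). dac was at 43.4 and 59.6 TPM in 8-10h neurons and 133 and 139 TPM in 18-22h neurons, against 11.96 and 16.5 TPM and then 4.41 and 12.7 TPM in Elav-negative cells. For Scr the levels were 61.8 and 66.4 and then 104.08 and 124 TPM in neurons and 45.3 and 50.05 and then 10.0 and 19.3 TPM in Elav-negative cells. For Abd-B they were 106 and 160.1 and then 122 and 151 TPM in neurons, and 129 and 128 and then 22.8 and 39.8 TPM in Elav-negative cells. The cause was not tested, and age and fly line cannot be told apart in these libraries.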

How the results depend on the processing

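Counts are given as genes that rose and fell, or for the difference between neuron and Elav-negative change as higher and lower in neurons. The fit of the 8 Elav libraries alone called 0 and 0 in neurons, 0 and 0 in Elav-negative cells and 0 and 0 for the difference, with 1416, 1685 and 325 genes at an unadjusted p below 0.05. Library totals in place of scaling factors, a setting chosen after seeing the data, gave 644 and 1459 in neurons, 1415 fallen in Elav-negative cells, 402 and 237 for the difference and 2191 fallen in Repo-negative cells. The receptor level as a covariate gave 1882 and 1552 in Elav-negative cells and 763 and 165 for the difference. Median-of-ratios size factors gave 217 and 149 and DESeq2 420 and 379 for the difference, where DESeq2 left 6634 adjusted p as NA. Leaving out 1 library gave 335 to 661 and 113 to 1563 in neurons, 290 to 1658 and 101 to 2531 in Elav-negative cells, 3 to 179 and 2 to 292 for the difference, and 1124 to 1641 and 703 to 1507 in Repo-negative cells. The share of calls that rose in neurons ran from 27.7% to 85.4% over these. Among all called genes the sign changed when 1 library was left out for 4 of the 727 fallen in neurons, 62 of the 1061 risen in Elav-negative cells and 1 of the 1393 fallen in Repo-negative cells, none of them a call in the other direction, and for none of the 912 risen in neurons or the 88 differences. The medians of the axon guidance, identity factor, RNA-binding, cytoskeleton, clock and sensory, study lncRNA, ribosomal protein and oxidative phosphorylation lists, and of the glia, fat body and gut markers, changed sign between settings. The cause was not tested. Deviations of same-numbered replicates correlated at -0.559 between the neuron groups, at -0.529 and -0.552 between the 18-22h neurons and the Elav-negative groups, and at 0.681 to 0.774 among the other 3 Elav groups. The signs differ and no label ties the numbers to a shared collection, so the samples were taken to share only a number. A replicate block across the 4 groups gave 1113 and 646 in neurons and 138 and 36 for the difference, and a replicate block within each sort 1102 and 630, and 122 higher for the difference. With crossed numbers, also chosen after seeing the data, the block gave 1015 and 711 in neurons.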

Other observations

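Several of the most abundant protein-coding RNAs separated by age without passing the test. At 8-10h the neurons held lola, a zinc finger gene of axon growth, at 5301 and 4624 TPM, and at 18-22h at 1384 and 1806 TPM (log2 fold change -1.47 ± 0.49, adjusted p = 0.0518 by edgeR's quasi-likelihood test with Benjamini-Hochberg adjustment). HmgD, a chromatin protein, was at 2612 and 2840.4 and then 873 and 1187 TPM (adjusted p = 0.0783), and Act5C, an actin, at 4956 and 4721 and then 2135 and 2610.0 TPM (adjusted p = 0.205). 14-3-3epsilon, a signalling adaptor, was higher in both older libraries, at 1498 and 1845 and then 3402 and 3488 TPM (adjusted p = 0.061). None of these 4 passed the test.

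Housekeeping lists had few calls, and their medians moved with single libraries. Of 93 ribosomal protein genes 0 rose and 1, RpS5b, fell in neurons (median log2 fold change -0.18, from -0.95 without replicate 2 of 8-10h to 1.24 without replicate 1 of 8-10h). Of 90 genes of oxidative phosphorylation 3 rose, ATPsynCF6, ATPsynG and SdhA (median 0.34, from -0.16 to 1.07 in the same fits, with 0 and 13 risen), and each of the 4 calls was lost when 1 of several neuron libraries was left out. Of 177 chemosensory receptor genes 1 rose.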
